A study of Mus musculus with 8 samples.

Results

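The 10 genes described here belong to the mammalian circadian clock or, in the case of Dbp, to its output: Arntl, Clock, Per1, Per2, Per3, Cry1, Cry2, Nr1d1, Nr1d2 and Dbp. They were chosen by symbol, and all 10 were found among the 45706 genes of the deposited table. The study concerns mitochondrial fission factor (Mff) in AgRP neurons, the hunger-promoting cells of the hypothalamic arcuate nucleus. The libraries used were 4 immunoprecipitates (IP) of ribosome-bound RNA and 4 inputs, the RNA of the whole homogenate, prepared by translating ribosome affinity purification. Each library pooled the arcuate tissue of 3 random-fed mice, males and females mixed, at 11 to 12 weeks of age. Every mouse of both fractions carried the genotype Mff fl/fl; AgRP-IRES-Cre tg/wt; RpL10a-GFP fl/wt, so Cre driven from the Agrp locus both deletes Mff and switches on a GFP-tagged ribosomal protein in the same cells. The comparison is therefore of ribosome-bound RNA with tissue RNA within knockout mice. The deposited table holds no library of another genotype, so no value below is an effect of deleting Mff. The time of day at death is not given in the sources used here.

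The clock is a transcriptional loop. BMAL1 (the product of Arntl) and CLOCK pair on E-box sequences and drive the Per, Cry, Nr1d and Dbp genes. PER and CRY proteins return to the nucleus and repress this pair, while the REV-ERB receptors (Nr1d1 and Nr1d2) repress Arntl through elements that the activating ROR receptors also bind. DBP, an output factor, acts on D-box sequences, among them those of Per genes. Many hypothalamic cell types besides those of the suprachiasmatic nucleus, the central pacemaker, run such a loop, and transcripts of its negative and output arms rise and fall over the day.

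Promoter sequences are shown for the 4 members that were higher in IP and for Cry1, which holds an E-box but was not higher. Each window runs from 250 bases before to 50 bases after a RefSeq start on GRCm38.p6, in the direction of the gene. Windows were found for 9 of 10 members, not for Per2, and the Per1 window shown is 1 of 2. Both strands were searched for the E-box CACGTG, the D-box TTANGTAA, the half-site AGGTCA of ROR and REV-ERB receptors, and the cyclic AMP element TGACGTCA. Capitals mark matches, and no match overlapped another one.
Per1 (chr11:69098699-69098998, plus strand): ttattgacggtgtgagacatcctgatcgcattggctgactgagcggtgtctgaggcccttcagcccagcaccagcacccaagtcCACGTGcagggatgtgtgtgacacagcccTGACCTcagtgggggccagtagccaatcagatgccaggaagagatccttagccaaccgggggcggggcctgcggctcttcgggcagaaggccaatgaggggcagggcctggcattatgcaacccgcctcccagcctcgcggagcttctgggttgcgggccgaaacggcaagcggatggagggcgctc
Per3 (chr4:151044616-151044915, minus strand): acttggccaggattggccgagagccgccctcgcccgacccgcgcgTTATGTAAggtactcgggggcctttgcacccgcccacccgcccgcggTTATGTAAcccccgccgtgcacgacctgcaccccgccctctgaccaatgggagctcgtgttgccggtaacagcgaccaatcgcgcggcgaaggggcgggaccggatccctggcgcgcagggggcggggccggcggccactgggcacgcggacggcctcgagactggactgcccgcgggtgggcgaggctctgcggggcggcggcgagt
Nr1d2 (chr14:18239057-18239356, minus strand): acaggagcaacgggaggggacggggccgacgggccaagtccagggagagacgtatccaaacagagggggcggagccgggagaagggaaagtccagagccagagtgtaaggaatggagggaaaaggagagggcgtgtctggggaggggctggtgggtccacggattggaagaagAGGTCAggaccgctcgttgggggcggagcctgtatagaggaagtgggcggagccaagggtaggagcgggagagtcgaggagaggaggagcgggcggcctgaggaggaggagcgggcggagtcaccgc
Dbp (chr7:45704997-45705296, plus strand): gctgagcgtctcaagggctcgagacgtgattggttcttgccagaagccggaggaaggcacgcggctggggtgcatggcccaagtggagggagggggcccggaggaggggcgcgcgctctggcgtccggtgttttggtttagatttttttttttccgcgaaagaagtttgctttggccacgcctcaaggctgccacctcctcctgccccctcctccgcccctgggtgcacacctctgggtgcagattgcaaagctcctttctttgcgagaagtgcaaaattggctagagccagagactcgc
Cry1 (chr10:85185005-85185304, minus strand): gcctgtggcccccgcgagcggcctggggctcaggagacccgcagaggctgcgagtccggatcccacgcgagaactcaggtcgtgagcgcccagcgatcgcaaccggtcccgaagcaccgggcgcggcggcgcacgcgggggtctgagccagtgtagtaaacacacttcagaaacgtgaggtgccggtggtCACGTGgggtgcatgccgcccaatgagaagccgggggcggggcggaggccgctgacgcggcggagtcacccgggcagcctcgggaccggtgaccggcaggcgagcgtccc
The Per1 window held 1 E-box and 1 AGGTCA half-site on the minus strand, the Per3 window 2 D-boxes and the Nr1d2 window 1 half-site. The Dbp window held none of these letters, and the Cry1 window held 1 E-box. Of the windows not shown, 1 of Arntl and 1 of Clock held 1 half-site each, and neither gene was past the threshold. The remaining windows not shown, among them those of Cry2 and Nr1d1 and the other Per1 window, held none of these motifs. Among all 32851 RefSeq windows of this length 7.15% held the E-box, 2.32% the D-box, 16.3% the half-site and 1.79% the cyclic AMP element. None of these motifs stood in all 4 windows of the members that were higher.

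IP libraries held 39902127 to 64757979 estimated counts and inputs 44112823 to 74607637. Levels are in CPM, each count scaled to a common library size after TMM factors. All 10 markers of AgRP neurons were higher in IP, with summed levels of 3705 to 5534 CPM in IP and 97.9 to 108 CPM in input. The gene lists were chosen with earlier results of these data known, so this count is a description and not a test. Mff averaged 68.3 ± 3.1 CPM in IP and 124 ± 8.7 CPM in input (SD, n = 4 each), which does not check the deletion, because RNA outside the deleted exons counts and input holds every cell type. Markers of other cells had lower summed levels in IP and were present there. The 8 astrocyte markers summed to 775 to 1043 CPM in IP and 2576 to 3205 CPM in input, the 8 oligodendrocyte markers to 605 to 883 CPM in IP and 2109 to 2661 CPM in input, and all 16 were called lower. The 10 markers of the suprachiasmatic nucleus summed to 162 to 203 CPM in IP and 323 to 431 CPM in input, with 5 lower and 1, Six6, higher. Of 8 markers each, 6 of microglia, 5 of tanycytes and ependyma and 2 of endothelial and mural cells were lower, with sums of 15.9 to 18.7, 20.9 to 27.2 and 11.2 to 31.7 CPM in IP against 51.4 to 63.4, 43.1 to 52.9 and 35.6 to 42.9 CPM in input. No marker of any list was at 0 in all IP libraries. The part of these cells in the clock gene values was not tested, and in such bulk samples fewer cells of a type and less RNA per cell cannot be told apart.

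All 10 members passed the filter on low counts. In IP against input 4 members were higher, Per1, Per3, Nr1d2 and Dbp, and the other 6 were not past the threshold of 0.05 on p-values adjusted by Benjamini-Hochberg over 17000 tested genes (edgeR's quasi-likelihood test). Among all tested genes 24.5% were higher and 20.9% lower (45.4% in either direction), and with upper quartile scaling the 4171 higher and 3545 lower genes became 3342 and 4384. The number of members lower was 0 by edgeR's adjusted p. It was 2 at an unadjusted p under 0.05 (Per2 and Cry1), 2 by DESeq2 (Cry1 and Cry2) and 2 by limma-voom (Per2 and Cry1). The median log2 fold change of the members was -0.02, beside -0.01 over all tested genes. In 4 of 10 members (Per1, Cry1, Nr1d2 and Dbp) the fractions did not overlap, beside 48.1% of tested genes, and in 3 of these every IP library was above every input, beside 24.1% of tested genes. The log2 fold changes of the members ranged from -0.44 to 0.78, and those of the 10 AgRP neuron markers from 3.52 (Calcr) to 7.98 (Agrp).

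**Figure D1:**
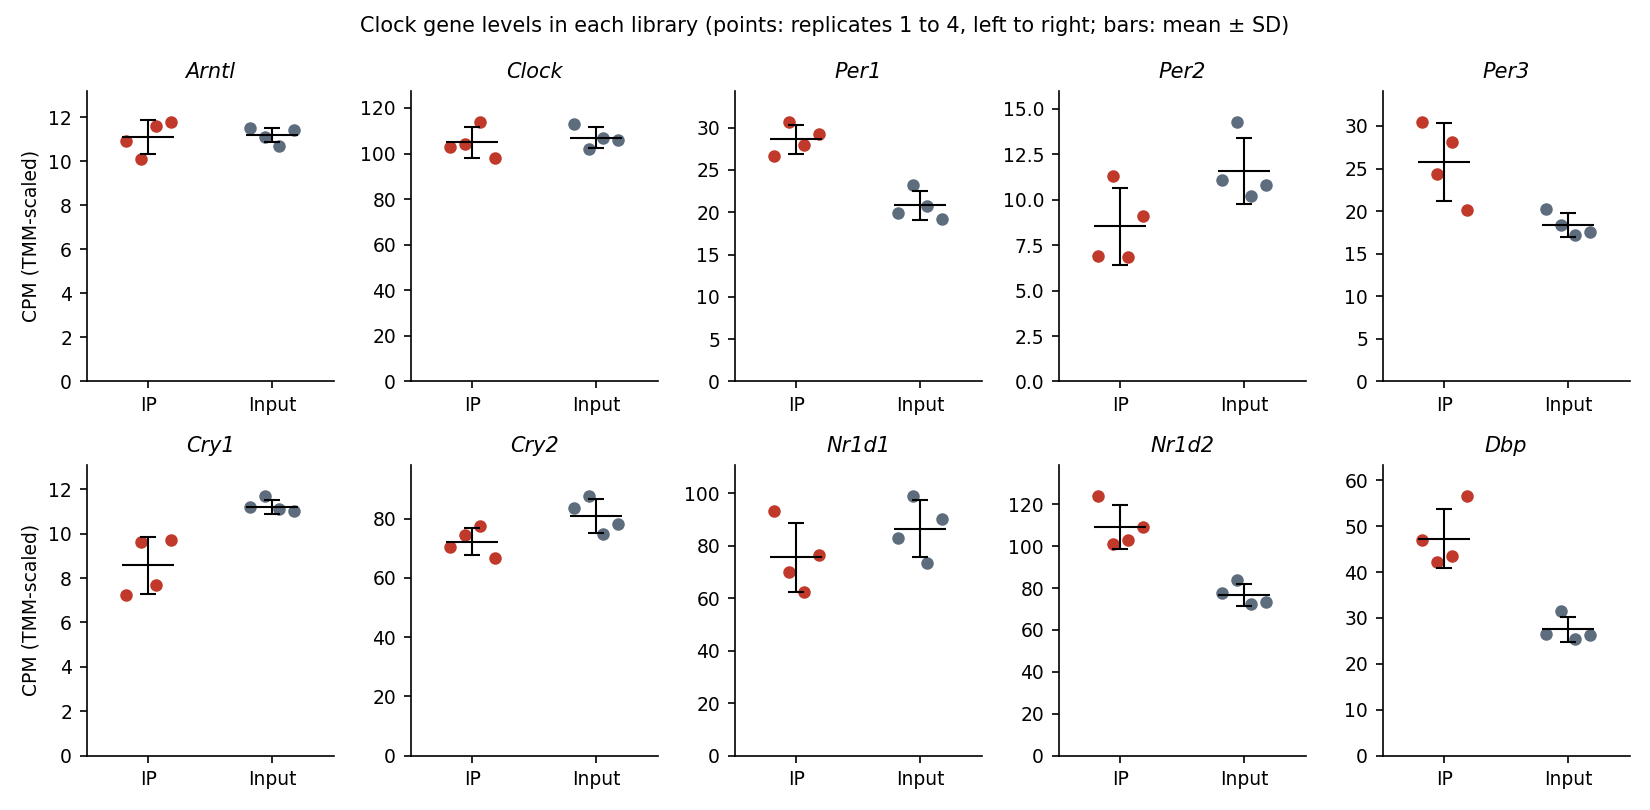
CPM of each clock gene (TMM-scaled, linear axes from 0) in the 4 IP and 4 Input libraries; points are libraries and bars the mean ± SD. Per1, Nr1d2 and Dbp sit above every input library in all 4 IP libraries, Per3 overlaps by 1 library (20.1 CPM in IP, 20.3 CPM in input), and Arntl and Clock coincide.

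The activators were not past the threshold. Arntl (ENSMUSG00000055116, chromosome 7, 113207465 to 113314126, plus strand, GRCm38) stood at 10.9, 10.1, 11.6 and 11.8 CPM in the 4 IP libraries (in replicate order here and below), against 11.5, 11.1, 10.7 and 11.4 CPM in the 4 inputs. Its log2 fold change was -0.01 with a 95% interval of -0.29 to 0.27 (adjusted p = 0.972, edgeR). Clock (ENSMUSG00000029238, chromosome 5, 76209868 to 76304792, minus strand) stood at 103, 104, 114 and 98.0 CPM in IP, against 113, 102, 107 and 106 CPM in input. The fractions overlapped for both genes. For Clock the log2 fold change was -0.03, with an interval of -0.18 to 0.12 (adjusted p = 0.777, edgeR), and the sign depended on the processing: with offsets for GC content and transcript length it was called higher at 0.31 (adjusted p = 0.00169). The Clock transcript used for these offsets is the longest of the members at 9.74 kb and has the lowest GC content, 40.9%.

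Of the 3 period genes, whose proteins are part of the repressor complex, 2 were higher and 1 was not past the threshold. Per1 (ENSMUSG00000020893, chromosome 11, 69095217 to 69109960, plus strand), a gene that hormones and neuronal activity also induce acutely, stood at 26.6, 30.7, 28.0 and 29.2 CPM in IP, against 19.9, 23.2, 20.7 and 19.2 CPM in input. Every IP library lay above every input library. The log2 fold change of Per1 was 0.46 ± 0.10 (SE, n = 4 libraries per fraction, adjusted p = 0.00327, edgeR), or 1.38-fold. Per3 (ENSMUSG00000028957, chromosome 4, 151003652 to 151044665, minus strand) stood at 30.5, 24.3, 28.1 and 20.1 CPM in IP, against 20.3, 18.4, 17.2 and 17.5 CPM in input. IP replicate 4 was the low one and fell within the input range. The log2 fold change of Per3 was 0.49 ± 0.14 (adjusted p = 0.0135, edgeR), and its call ended with upper quartile scaling (0.36, adjusted p = 0.0568), which lowers the median of all genes by 0.13. Per2 (ENSMUSG00000055866, chromosome 1, 91415982 to 91459324, minus strand), whose protein binds cryptochromes in the repressor complex, had a lower mean in IP. It stood at 6.88, 11.3, 6.87 and 9.09 CPM in IP, against 11.1, 14.3, 10.2 and 10.8 CPM in input. IP replicate 2 was as high as the inputs and the other 3 were below them. The log2 fold change of Per2 was -0.44 ± 0.20 (adjusted p = 0.0922, edgeR). It was called lower without IP replicate 2 (-0.61, adjusted p = 0.0218), in limma-voom (-0.53, 0.0409), with upper quartile scaling (-0.58, 0.0357) and with GC and length offsets (-0.54, 0.0416).

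The cryptochrome genes, which encode the main repressors of the BMAL1 and CLOCK pair, were not past the threshold. Cry1 (ENSMUSG00000020038, chromosome 10, 85131700 to 85185064, minus strand) stood at 7.23, 9.63, 7.70 and 9.72 CPM in IP, against 11.2, 11.7, 11.1 and 11.0 CPM in input. Each IP library lay below each input library, and the inputs varied little. The log2 fold change was -0.39 ± 0.15 (adjusted p = 0.0554, edgeR), and Cry1 was called lower in 8 of 19 alternatives, among them DESeq2 (-0.43, adjusted p = 0.0172), without IP replicate 2 (-0.45, 0.0378) and without IP replicate 4 (-0.46, 0.0339). Cry2 (ENSMUSG00000068742, chromosome 2, 92403646 to 92434043, minus strand) stood at 70.3, 74.4, 77.6 and 66.9 CPM in IP, against 83.6, 87.7, 74.7 and 78.1 CPM in input. The fractions overlapped through IP replicate 3 and input replicate 3. Its log2 fold change was -0.16 ± 0.08 (adjusted p = 0.114, edgeR), and it was called lower by DESeq2 (-0.20, adjusted p = 0.0419), with upper quartile scaling (-0.30, 0.00987) and with GC and length offsets (-0.25, 0.0189).

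Of the REV-ERB genes 1 was higher and 1 was not past the threshold. Nr1d2 (ENSMUSG00000021775, chromosome 14, 18204054 to 18239127, minus strand), encoding REV-ERB beta, stood at 124, 101, 103 and 109 CPM in IP, against 77.6, 84.0, 72.4 and 73.3 CPM in input. All IP libraries lay above all inputs. The log2 fold change of Nr1d2 was 0.51 ± 0.08 (adjusted p = 0.000498, edgeR), or 1.42-fold. Nr1d1 (ENSMUSG00000020889, chromosome 11, 98767932 to 98775333, minus strand), encoding REV-ERB alpha, stood at 93.2, 70.1, 62.3 and 76.6 CPM in IP, against 83.1, 99.0, 73.6 and 90.2 CPM in input. IP replicates 1 and 4 fell within the input range. Its log2 fold change was -0.20 ± 0.13 (adjusted p = 0.241, edgeR), and without IP replicate 1 it was called lower (-0.31, adjusted p = 0.0454). Exons of Nr1d1 share 263 bp with those of Thra, a thyroid hormone receptor gene on the opposite strand, and the strand setting is not given in the sources used here. The counts of Nr1d1 were not whole numbers in 8 of 8 libraries, and reads of the shared stretch cannot be assigned with certainty. Thra itself averaged 275 ± 4.4 CPM in IP and 204 ± 14 CPM in input (SD, n = 4 each) and was higher by 0.43 ± 0.06 (adjusted p = 0.000193, edgeR).

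Dbp, the D-box output factor and a direct target of the BMAL1 and CLOCK pair, had the largest fold change of the 10. Dbp (ENSMUSG00000059824, chromosome 7, 45705088 to 45710203, plus strand) stood at 46.9, 42.3, 43.4 and 56.6 CPM in IP, against 26.5, 31.5, 25.5 and 26.4 CPM in input. Its lowest IP library was well above its highest input library. The log2 fold change was 0.78 ± 0.12 (adjusted p = 0.000200, edgeR), or 1.72-fold, and ran from 0.65 to 0.88 over 19 alternatives, all of them called. Exons of Dbp share 539 bp with those of Sphk2, a sphingosine kinase gene on the opposite strand, and Dbp counts were not whole in 8 of 8 libraries. Sphk2 averaged 22.4 ± 2.3 CPM in IP and 17.4 ± 1.2 CPM in input (SD, n = 4 each) and was higher by 0.37 ± 0.12 (adjusted p = 0.0226, edgeR). Cry2 and Arntl also share exonic stretches of 295 bp and 33 bp with genes on the opposite strand, D930015M05Rik and Gm45355. D930015M05Rik fell below the filter on low counts, with means of 0.0732 CPM in IP and 0.133 CPM in input. Cry2 counts were not whole in 6 of 8 libraries. Per1 and Nr1d2 were likewise called in 19 of 19 alternatives, and Per3 in 18.

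Whether members of a family differed from each other was tested on the log2 ratio of the pair within each library. The Per1 to Per2 ratio was 1.71 ± 0.25 in IP and 0.82 ± 0.12 in input (log2 of CPM + 0.5, SD, n = 4 each), a difference of 0.90. The Per2 to Per3 ratio was -1.55 ± 0.54 in IP and -0.65 ± 0.20 in input, a difference of -0.90. The Nr1d1 to Nr1d2 ratio was -0.54 ± 0.13 in IP and 0.16 ± 0.12 in input, a difference of -0.70. These ratios are not corrected for transcript length, so only their difference between fractions is compared. In these 3 pairs the fractions did not overlap, with a 2-sided exact permutation p of 0.0286 each, the smallest that 70 arrangements allow, and 0.0571 after adjustment over the 6 pairs examined. The remaining pairs overlapped. The Per1 to Per3 ratio differed by -0.01, Cry1 to Cry2 by -0.22 and Arntl to Clock by 0.02, with exact permutation p of 1.00, 0.300 and 0.994 after the same adjustment.

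**Figure D2:**
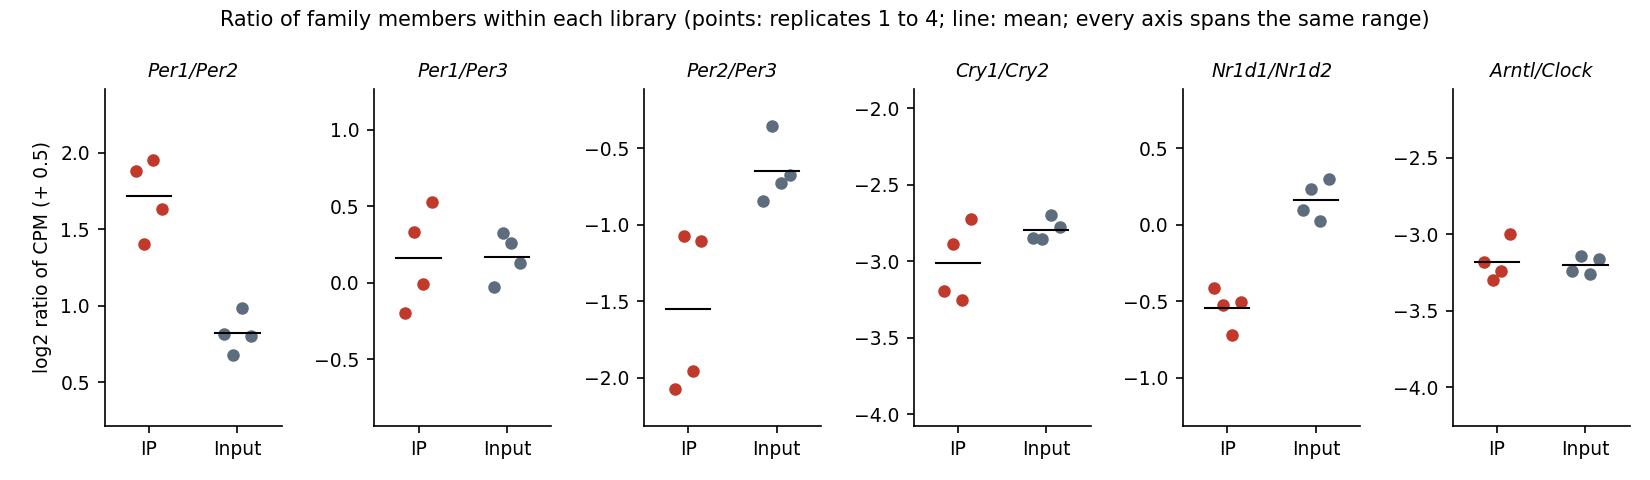
Log2 ratio of CPM (+ 0.5) between 2 members of a family within each library, IP left and Input right; points are libraries and lines are means, and every axis spans the same range. The fractions separate for Per1/Per2, Per2/Per3 and Nr1d1/Nr1d2 and overlap for the other pairs.

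Levels of different genes were compared per kb of the longest protein-coding transcript. In IP the order from high to low was Nr1d1 (27.8 ± 4.8 CPM per kb), Dbp (25.7 ± 3.5), Nr1d2 (23.4 ± 2.2), Cry2 (18.2 ± 1.2), Clock (10.8 ± 0.70), Per1 (6.13 ± 0.37), Per3 (4.29 ± 0.76), Arntl (3.73 ± 0.26), Cry1 (2.83 ± 0.43) and Per2 (1.46 ± 0.37; SD, n = 4). The ranges over libraries of the first 3 overlapped from one neighbour to the next, as did those of Per3 and Arntl, and all other neighbours were apart. In input Nr1d1 also led (31.8 ± 4.0 CPM per kb), followed by Cry2 (20.4 ± 1.4), Nr1d2 (16.5 ± 1.1), Dbp (14.9 ± 1.5), Clock (11.0 ± 0.46), Per1 (4.44 ± 0.38), Arntl (3.75 ± 0.11), Cry1 (3.72 ± 0.11), Per3 (3.06 ± 0.23) and Per2 (1.99 ± 0.31). Nr1d2 and Dbp overlapped there, as did Arntl and Cry1. Dbp thus ranked 2 in IP and 4 in input, and Per3 7 in IP and 9 in input. With median transcript lengths 5 members changed rank in each fraction, and Nr1d2 led in IP. Per length, Per2 exceeded 36.6% of tested genes in IP and 39.8% in input, while Nr1d1 exceeded 88.8% in IP and 92.2% in input.

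**Figure D3:**
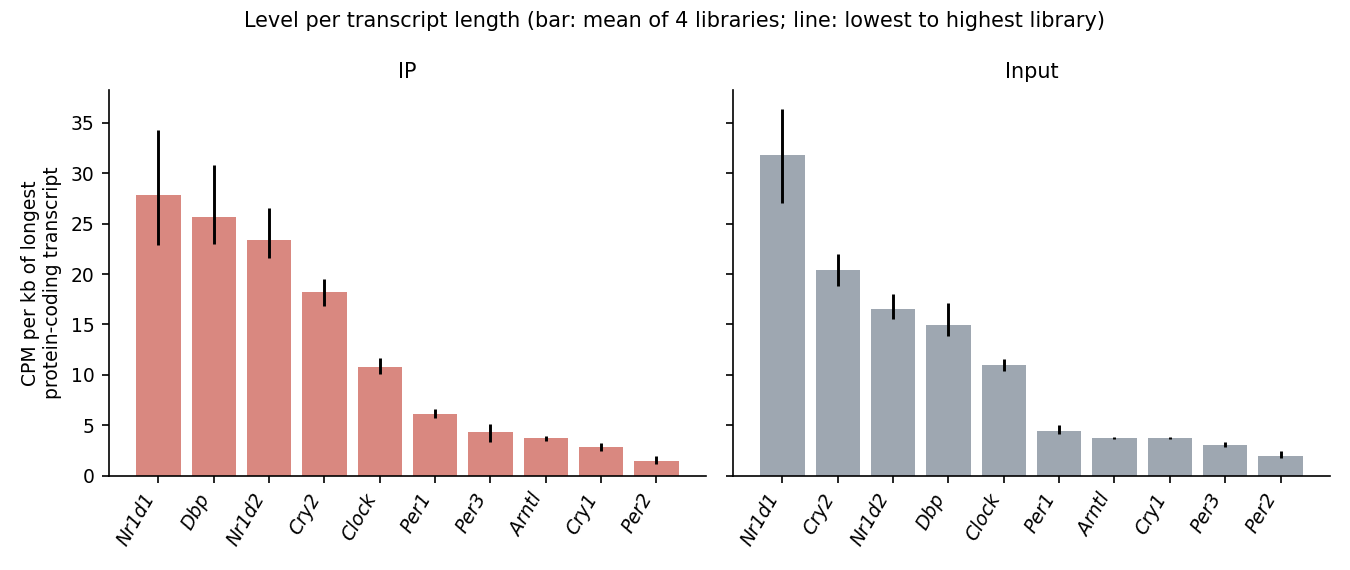
Mean CPM per kb of the longest protein-coding transcript in IP (left) and Input (right), members ordered by level; black lines run from the lowest to the highest of 4 libraries. Nr1d1 leads and Per2 is last in both fractions, and Dbp ranks 2 in IP and 4 in input.

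Members differed in how much they varied between libraries of 1 fraction. Arntl was among the steadiest genes of its level, with an SD of log2 CPM of 0.0960 in IP and 0.0409 in input, above 2.70% and 3.40% of the 1000 tested genes nearest in level. Nr1d1 varied most relative to its level, with 0.244 in IP and 0.180 in input, above 85.6% and 96.2% of such genes. In input, replicate 2 was the highest library for 7 of 10 members and replicate 3 the lowest for 7 of 10. Over all tested genes these shares were 26.0% and 24.9%. Input replicate 2 stood above its fraction mean by 0.30 for Per2, 0.20 for Nr1d1, 0.20 for Dbp, 0.16 for Per1, 0.13 for Nr1d2 and 0.12 for Cry2 (log2). It stood at 0.06 for Cry1, 0.01 for Per3, -0.01 for Arntl and -0.07 for Clock. Over all tested genes its median deviation was 0.0. Input replicate 2 was also the deepest library, and a part of depth in these deviations was not tested.

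In IP no library led in this way, with 2 or 3 members highest in each. Per2 and Cry1 both stood above their means in IP replicates 2 (0.42 and 0.17) and 4 (0.11 and 0.18) and below them in replicates 1 (-0.27 and -0.22) and 3 (-0.27 and -0.14). Per3 did the reverse, with 0.26 and 0.14 in replicates 1 and 3 and -0.07 and -0.33 in replicates 2 and 4. Nr1d1 was highest in IP replicate 1 (0.32) and lowest in replicate 3 (-0.26), and Dbp was highest in replicate 4 (0.27). These are deviations of single libraries, each a pool of 3 mice, and no test was made of them.

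**Figure D4:**
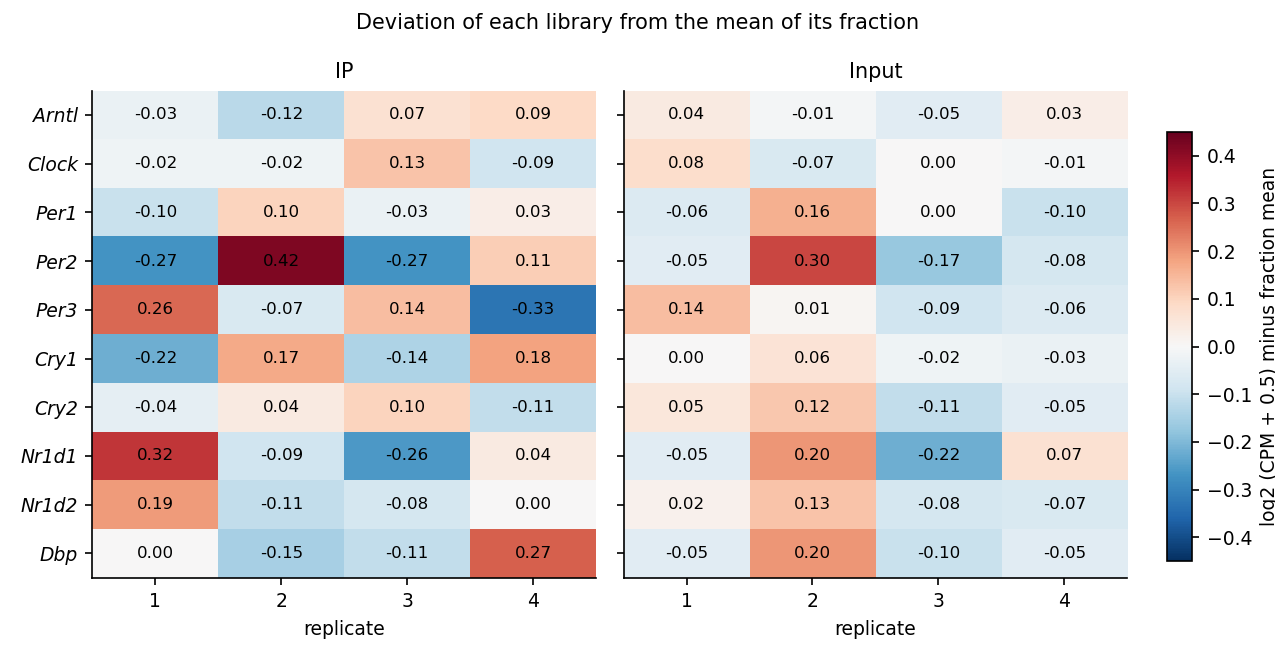
Deviation of log2 (CPM + 0.5) from the mean of its fraction for each member (rows) and replicate (columns), IP left and Input right; red is above and blue below the mean. In Input, replicate 2 is above the mean for all members but Arntl and Clock, though for Per3 only by 0.01. In IP, replicates 2 and 4 are above it for Per2 and Cry1 and below it for Per3.

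Other genes of the clock were read from a list of 28, all of them tested. The test called 9 of them higher and 5 lower and left 14 uncalled, with a median log2 fold change of 0.20, beside 24.5% higher, 20.9% lower and a median of -0.01 over all tested genes. With upper quartile scaling the list had 5 higher and 7 lower. The number of further activators called was 0 of 2 by edgeR, also at an unadjusted p under 0.05, and 0 by DESeq2 and limma-voom: Arntl2, a relative of Arntl, had 0.57 ± 0.31, and Npas2, which can stand in for Clock, had -0.47 ± 0.40. Npas2 stood at 4.37, 3.32, 13.2 and 3.57 CPM in IP, against 7.96, 9.39, 7.63 and 9.09 CPM in input, and without IP replicate 3 it was called lower (-1.18, adjusted p = 0.000358, edgeR). 

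Of 5 further repressors 1 was higher and 1 lower by edgeR, beside 24.5% and 20.9% of all tested genes. By DESeq2 3 were lower (Bhlhe41, Cipc and Timeless), and by limma-voom 2. Bhlhe40, whose product DEC1 competes for E-boxes, averaged 83.7 ± 8.5 CPM in IP and 50.1 ± 3.1 CPM in input (SD, n = 4 each), a log2 fold change of 0.74 ± 0.09 (adjusted p = 4.76e-05, edgeR). Its paralog Bhlhe41 (DEC2) averaged 55.7 ± 8.1 CPM in IP and 68.3 ± 2.8 CPM in input (-0.30 ± 0.10, adjusted p = 0.0336). The Bhlhe41 call ended in 9 of 19 alternatives, including each fit without an input library or without IP replicate 3 or 4 (-0.30 to -0.23, adjusted p = 0.0681 to 0.112). Ciart, a strongly rhythmic repressor gene, had 0.43 ± 0.26 (adjusted p = 0.210) and was called higher without IP replicate 3 (0.61, 0.0240). Timeless, at 0.151 to 0.879 CPM in IP and 0.698 to 1.55 CPM in input, had -1.52 ± 0.65 (adjusted p = 0.0789, edgeR). It was called lower by DESeq2 (-1.57, adjusted p = 0.0384), by limma-voom (-1.89, 0.0226) and without IP replicate 4 (-2.16, 0.0154). Cipc, which encodes a CLOCK-interacting repressor, had -0.19 ± 0.09 (adjusted p = 0.113, edgeR) and was called lower by DESeq2 (-0.22, 0.0427) and with upper quartile scaling (-0.32, 0.0140).

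Both ROR receptor genes read here, whose products activate at the elements that REV-ERB proteins repress, were lower, beside 20.9% of all tested genes. Rorb stood at 61.6, 71.4, 80.8 and 47.4 CPM in IP, against 159, 180.3, 162 and 171 CPM in input, and Rora at 95.1, 129, 147 and 127 CPM in IP, against 271, 315, 247 and 341 CPM in input. Every IP library lay below every input library for both genes. Their log2 fold changes were -1.36 ± 0.14 (adjusted p = 1.10e-05, edgeR) and -1.24 ± 0.14 (adjusted p = 2.21e-05). Rorb is itself in the suprachiasmatic marker list above, so the sum of that list is not independent of it. Rorb averaged 65.3 CPM in IP and 168 CPM in input, and Avp 60.8 and 142 CPM, the highest of the 10 markers. The whole list summed to 162 to 203 CPM in IP and 323 to 431 CPM in input.

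Among D-box factors Hlf was lower, with 126 ± 13 CPM in IP and 178 ± 15 CPM in input (-0.50 ± 0.09, adjusted p = 0.000893, edgeR). Tef, the remaining relative, averaged 87.9 ± 5.7 CPM in IP and 87.8 ± 5.6 CPM in input (log2 fold change 0.00 ± 0.08), and the D-box repressor gene Nfil3 had 0.16 ± 0.19. Of the 7 kinase and phosphatase genes 5 were higher and 1 lower, beside 24.5% higher and 20.9% lower over all tested genes. Csnk1e and Csnk1d, whose kinases phosphorylate PER proteins, had 0.72 ± 0.15 (adjusted p = 0.00249) and 0.50 ± 0.10 (adjusted p = 0.00165). Csnk2a1, Csnk2b and Csnk1a1 followed at 0.28, 0.28 and 0.20, and the phosphatase gene Ppp1cb had -0.27 ± 0.09 (adjusted p = 0.0221).

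These smaller changes depended on the processing. With GC and length offsets Csnk2b was called lower (-0.24, adjusted p = 0.0302) and Ppp1cb stood at 0.02. Upper quartile scaling ended the calls of Csnk1a1 (0.06), Csnk2a1 (0.14) and Csnk2b (0.15). Calls near the threshold also ended when 1 library was left out. Csnk2a1 was not called without IP replicate 1 or 2 or input replicate 1, 2 or 3 (0.20 to 0.29, adjusted p = 0.0525 to 0.0767, edgeR). Ppp1cb was not called without IP replicate 1 or 4 or input replicate 1, 2 or 3 (-0.26 to -0.23, 0.0541 to 0.0792). Leaving out 1 input library also lowered the calls over all genes, from 4171 higher and 3545 lower to 3661 to 3692 and 2862 to 2910.

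Of 4 ubiquitin ligase and protease genes 2 were higher, beside 24.5% of all tested genes. Fbxl21, which encodes an F-box protein that binds cryptochromes, stood at 29.9, 22.1, 25.6 and 24.6 CPM in IP, against 14.0, 12.3, 13.9 and 13.9 CPM in input, and all IP libraries lay above all inputs. Its log2 fold change of 0.92 ± 0.12 (adjusted p = 9.64e-05, edgeR) was the highest of the 38 clock genes. Fbxw11, of a ligase acting on PER proteins, was higher by 0.32 ± 0.07 (adjusted p = 0.00300), a call that ended with upper quartile scaling (0.18, 0.0562). The rhythmic protease gene Usp2 had -0.62 ± 0.32 (adjusted p = 0.137, edgeR), and -0.37 (adjusted p = 0.203) without IP replicate 1, its lowest library at 4.49 CPM. Among the 5 chromatin partners Nono, an RNA-binding protein gene, was higher by 0.62 ± 0.10 (adjusted p = 0.000354), Ncoa2 had 0.22 ± 0.09 (adjusted p = 0.0681) and Ncor1, the corepressor that REV-ERB proteins recruit, had -0.13 ± 0.07 (adjusted p = 0.160). Ncoa2 was called higher without IP replicate 2 (0.27, 0.0287) and without input replicate 2 (0.28, 0.0390).

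**Figure D5:**
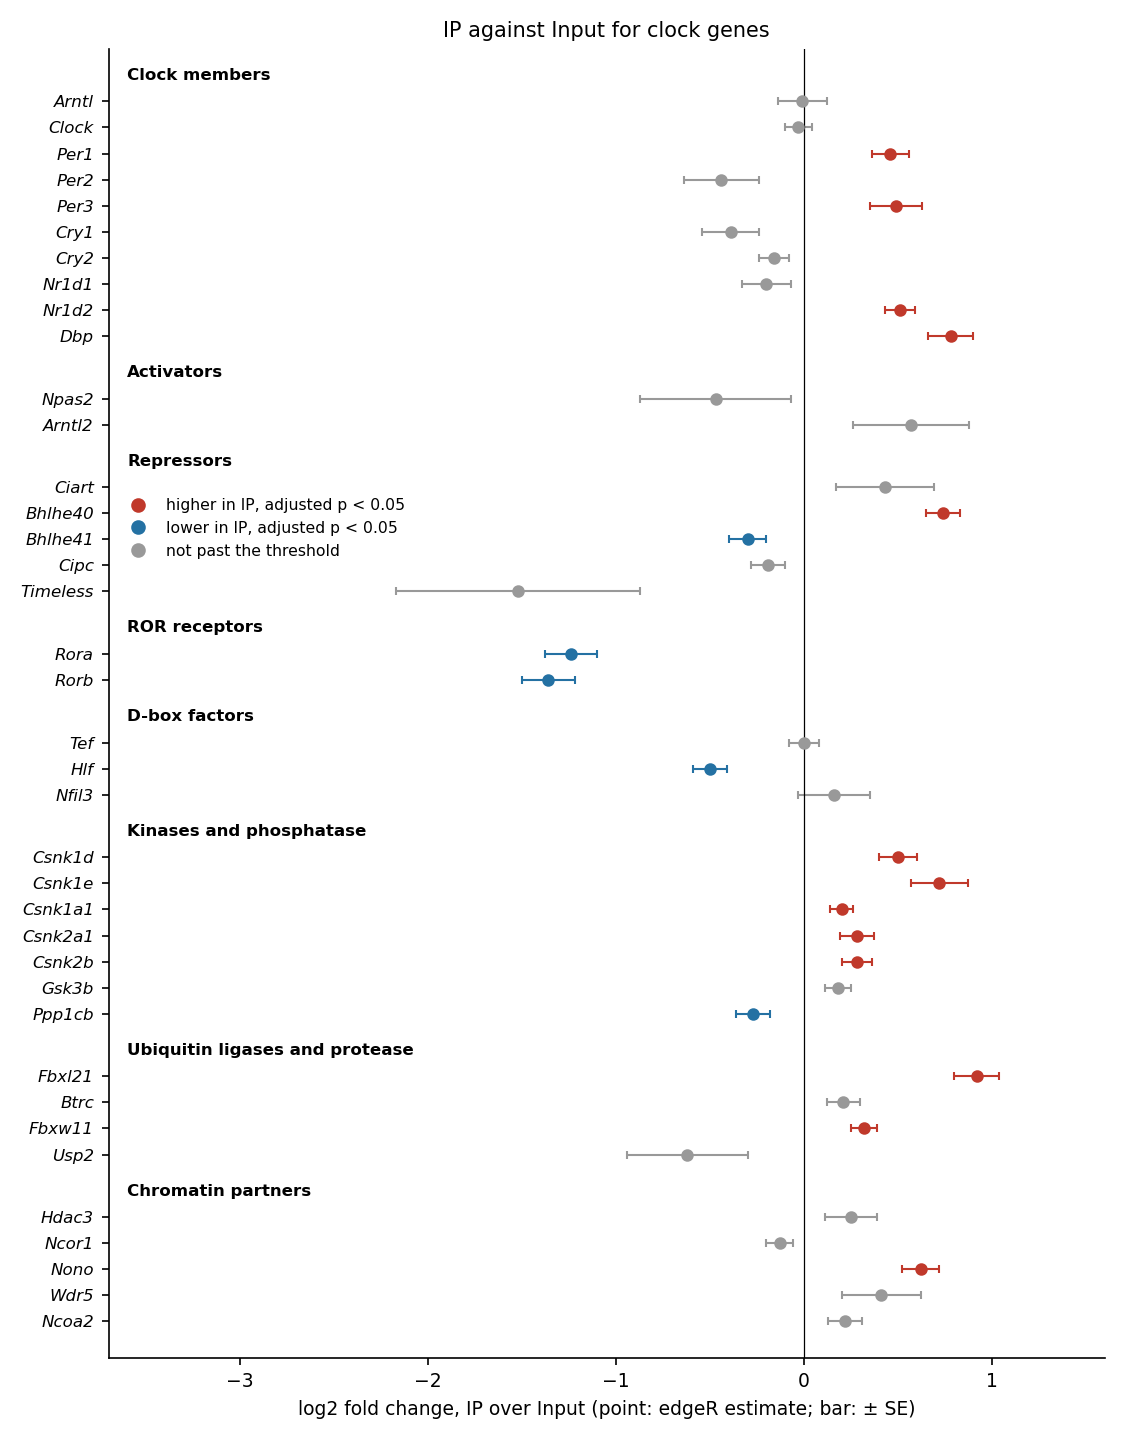
Log2 fold change of IP over Input (point) with its SE (bar) for the 10 members and the 28 further clock genes, by role; red and blue mark adjusted p under 0.05 (edgeR, over all tested genes). Rora and Rorb are lowest among called genes, at -1.24 and -1.36, and Fbxl21, Dbp, Bhlhe40 and Csnk1e are highest, at 0.92, 0.78, 0.74 and 0.72.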

How the data were processed

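RNA sequencing counts of 8 libraries were used, 4 IP and 4 input, grouped by sample titles. The authors deposited estimated counts per gene, not normalized; Salmon 0.14.1 and build GRCm38.p6 are named in the submitters' processing notes, while no source used here names the annotation, the trimming or whether counting was stranded. Every sample column belonged to 1 of the 8 libraries. No pair of libraries was identical, and replicates differed by more than sampling noise (chi-square per degree of freedom 18.5 to 64.9 in input and 47.1 to 329 in IP). IP pairs that included replicate 3 stood at 222 to 329, and the other IP pairs at 47.1 to 60.2. Without IP replicate 3 the test called 4508 genes higher and 4230 lower, beside 4171 and 3545 with all libraries.

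After rounding to whole numbers, these estimates went into edgeR 4.0.16 (R 4.3.3): filterByExpr with a minimum count of 10, TMM factors, quasi-likelihood test of IP against input without covariates, and Benjamini-Hochberg adjustment over 17000 genes. Each SE was derived from the fold change and its F statistic (size of the log2 value over root F), and 95% intervals use the t distribution with the degrees of freedom of the fit. Permutation tests used scipy 1.17.1. The fits were tested on simulated counts that gave every gene the same dispersion in both fractions, a simpler setting than these data. Gene coordinates, length and GC content (longest protein-coding transcript) came from GENCODE M21 on GRCm38, in which 98.8% of identifiers were found, and promoters from RefSeq. The labels do not say that IP and input of 1 number share a pool. P-values are relative to the spread between libraries of a fraction. That spread holds differences between pools of mice and between preparations, which cannot be told apart here. Alternatives were RLE, upper quartile or no scaling factors, other gene filters, removal of mitochondrial and ribosomal RNA genes, DESeq2 1.42.0, limma-voom (limma 3.58.1), GC and length offsets (mgcv 1.9.3), the replicate number as a block, and leaving out each library. The members, gene lists and rule for named genes were chosen with earlier results of these data known. The rule names all members, at least the 2 genes with the smallest p in each direction of each group of the further list, Mff, Agrp and the 5 genes most like Dbp. The list of further clock genes holds 28, and 2 others chosen with it are not reported here; they were left out for reasons unrelated to their values.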

Additional observations from a re-analysis of the deposited data

Results flagged for a closer look

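In 94 groups of 4 libraries (each member, each further clock gene, Mff, Agrp and 7 summed marker lists, per fraction), 9 held a library set apart from the other 3 by a gap above Dixon's 95% critical share of the whole range. Chance gives about 1 in 20 such groups. Among the members this was Dbp in input replicate 2, at 31.5 CPM against 25.5 to 26.5 CPM in the other inputs. Input replicate 2 was also apart for Bhlhe41 (72.6 CPM, highest), Ncoa2 (119 CPM, highest) and Fbxl21 (12.3 CPM, lowest). IP replicate 2 was apart for Arntl2 (1.96 CPM, lowest) and Wdr5 (6.40 CPM, lowest). IP replicate 3 was apart for Npas2 (13.2 CPM, highest) and IP replicate 1 for Cipc (55.2 CPM, lowest). The summed microglia markers were apart in input replicate 4 (63.4 CPM, highest). Without IP replicate 2 Wdr5, a histone methylation factor gene, was called higher (0.59, adjusted p = 0.00686, edgeR).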

How the results depend on the processing

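Per1, Nr1d2 and Dbp were called higher in 19 of 19 alternatives and Per3 in 18, its exception being upper quartile factors (0.36). The count of members called lower, 0 in the fit reported, was 1 with RLE factors, without mitochondrial and ribosomal RNA genes and with the filter of 1 CPM in 4 libraries, 2 with DESeq2, limma-voom, GC and length offsets and offsets with the replicate block, 3 with upper quartile factors, and 0 to 2 when 1 library was left out. Cry1 was called lower at -0.43 with RLE factors, DESeq2 and limma-voom, -0.53 with upper quartile factors, -0.40 without mitochondrial and ribosomal RNA genes and -0.42 with the filter of 1 CPM, and ran from -0.46 to -0.32 when 1 library was left out. Per2 was called lower at -0.58 with upper quartile factors, -0.53 in limma-voom, -0.54 with offsets and -0.57 with offsets and the block (-0.61 to -0.32 with 1 library left out). Cry2 was called lower at -0.30 with upper quartile factors, -0.20 by DESeq2 and -0.25 with offsets, with or without the block. Nr1d1 ran from -0.31 to -0.11 with 1 library left out. Arntl and Clock, at -0.01 and -0.03, changed sign with library totals alone (0.10 and 0.08), with offsets (0.14 and 0.31) and with offsets and the block (0.14 and 0.31), and ran from -0.03 to 0.04 and -0.07 to 0.01 with 1 library left out. Of the further clock genes, the count called higher was 5 with upper quartile factors, and the count called lower was 7 with upper quartile factors, 3 with library totals alone and 3 to 5 with 1 library left out. Tef changed sign, uncalled, with RLE factors (-0.03), upper quartile factors (-0.13), without mitochondrial and ribosomal RNA genes (-0.01), with no filter (-0.01) or the filter of 1 CPM (-0.02), with DESeq2 (-0.03) and with offsets (-0.06, the same with the block), and ran from -0.03 to 0.05 with 1 library left out. With offsets, Csnk2b stood at -0.24 (the same with the block), Ppp1cb at 0.02 (the same) and Ncor1 at 0.02 (0.01 with the block). The causes of these changes were not tested. Upper quartile factors moved the median of all genes by -0.13 and library totals alone by 0.10. Median transcript lengths changed the rank of 5 members in IP and 5 in input. Differences in pair ratios kept their sign with a pseudocount of 1, and the smallest exact p with 1 library left out is 0.0571. With 1 library left out the difference of Per1 to Per3 ran from -0.13 to 0.11 and that of Arntl to Clock from -0.04 to 0.06. The other pairs kept their sign there.

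Same-numbered IP and input libraries correlated at 0.0567 to 0.0973 in their deviations from the fraction means, and every library correlated best with its own number, a hint from the data and not the design. With the replicate block 3878 genes were called higher and 3714 lower, beside 4171 and 3545 without it, and 4 members were higher and 0 lower. Usp2 was called lower with the block (-0.74, adjusted p = 0.0281, edgeR) and with offsets and the block (-0.79, 0.0234). Per2 and Cry1, at 6.87 to 11.3 CPM and 7.23 to 9.72 CPM in IP, had the largest SE of the members (0.20 and 0.15).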

Other observations

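The 5 genes whose deviations within fractions were most like those of Dbp over the 8 libraries were Dock1, Gab2, Kars, Etnppl and Gtpbp4, with root mean square differences of 0.0305 to 0.0545 (log2) among 7591 genes compared. The other members were farther from Dbp. Nr1d2 ranked 544 (0.122), Per1 968 (0.137), Nr1d1 1939 (0.162), Cry2 2501 (0.174), Per2 5180 (0.238) and Per3 5959 (0.268). Arntl, Clock and Cry1 were outside the comparison, which asked for a mean of at least 10 CPM and a mean SD within fractions of at least 0.5 times that of Dbp. No test was made of these ranks.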
